A study of Mus musculus with 4 samples.

Results

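The transcripts of 9 amino acid transporters other than the cystine exchanger were followed in 3D-cultured mouse mammary cells. The 9 genes, Slc7a1, Slc7a3, Slc7a5, Slc38a1, Slc38a2, Slc1a4, Slc1a5, Slc6a9 and Slc43a1, were found by symbol among the 54446 genes of the deposited table, and all 9 had a value above 0 in every library. The cells came from the mammary gland of wild type C57BL/6 mice, were sorted by flow cytometry as basal (Lin-CD29hi CD24+) or luminal (Lin-CD29lo CD24+) cells and were grown in growth factor-reduced Matrigel under DMEM/F12 with ITS and EGF. Each cell label was treated with DMSO, which is 0 μM baicalin, or with 100 μM baicalin, a flavonoid glycoside of Scutellaria roots. This gave 4 libraries in all, basal DMSO, basal baicalin, luminal DMSO and luminal baicalin, with 1 library each, so that no p-value is given and every comparison is between 2 libraries. The labels give no age of the mice and no number of mice behind a culture, and the study's methods give an age range for virgin females, or other stages, without saying which mice gave the sequenced cells. Values are FPKM, the fragments per kilobase of exon divided by library depth, and between 19356091 and 20648793 fragments lay behind each library. The comparisons ask how baicalin altered the transcripts of the cells under each label.

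The cell labels went against the markers of the mammary lineages. The summed FPKM of 10 basal markers, such as Krt5, Krt14 and Acta2, was 1684 in basal DMSO, 461 in basal baicalin, 5119 in luminal DMSO and 6131 in luminal baicalin. The summed FPKM of 10 luminal markers, such as Krt8, Krt18 and Krt19, was 4159, 2753, 1209.5 and 993 in the same order. All 10 basal markers were higher in the library labelled luminal under both treatments, and 9 of 10 luminal markers with DMSO and 10 of 10 with baicalin were lower there. The libraries are therefore called by their labels only. The immune list of 6 markers summed to 7.53, 51.5, 4.51 and 13.8 FPKM, nearly all of it Cd68, a lysosomal protein of macrophages, while all markers but Cd68 were at 0 in basal baicalin. Fibroblast markers summed to between 2.60 and 10.4 FPKM and endothelial markers to between 0.901 and 3.57 FPKM over 6 genes each.

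Amino acids do not cross a lipid bilayer freely and enter cells through carriers of the solute carrier families. Sodium-coupled carriers load the cell with small neutral amino acids, and exchangers then trade these for leucine and other large neutral amino acids, which the kinase complex mTORC1 needs for its activity. When amino acids run short, the kinase GCN2 phosphorylates the initiation factor eIF2α and the transcription factor ATF4 is made, which binds promoters of transporter and amino acid synthesis genes. The mammary gland is known for strong uptake of amino acids in lactation, when they feed the synthesis of milk protein.

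The promoters of the transporters are shown first, since ATF4 acts through a short composite element (C/EBP-ATF response element) and since NRF2, another stress-responsive factor, acts through the antioxidant response element. RefSeq promoter windows of GRCm38.p6, from 250 bases before to 50 bases after a start site, were at hand for 5 of the 9 genes, Slc7a1, Slc38a2, Slc1a4, Slc6a9 and Slc43a1. Slc7a3, Slc7a5, Slc38a1 and Slc1a5 are only named. Both strands were searched for TGATGNAA, the core of the first element, and for TGACNNNGC, the core of the second. The windows that held a match in a gene above 5 FPKM are given from 60 bases before to 9 bases after the start base, 70 bases each, 5′ to 3′ on the strand of the gene. Capitals mark the match on either strand.
Slc1a4, chr11:20332704-20332773, minus strand: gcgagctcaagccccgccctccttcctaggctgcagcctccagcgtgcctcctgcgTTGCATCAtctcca
Slc7a1 (start 1), chr5:148399895-148399964, minus strand: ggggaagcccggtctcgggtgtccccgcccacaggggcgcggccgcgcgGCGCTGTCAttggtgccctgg
Slc38a2, chr15:96699719-96699788, minus strand: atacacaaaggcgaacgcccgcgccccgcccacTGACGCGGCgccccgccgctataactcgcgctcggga
Slc6a9 (start 2), chr4:117849290-117849359, plus strand: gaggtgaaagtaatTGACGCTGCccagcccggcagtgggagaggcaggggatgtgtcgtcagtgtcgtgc
Slc6a9 (start 3), chr4:117855487-117855556, plus strand: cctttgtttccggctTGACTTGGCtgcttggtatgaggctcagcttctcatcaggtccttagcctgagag

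TGATGNAA was found in 1 of the 5 genes, Slc1a4, as its reverse complement across the start site. Of all 32851 windows 3.97% held this core, and of 11551 genes with a window and a value above 0 in all 4 libraries 2.88% did. TGACNNNGC was found in 4 of the 5 genes, Slc7a1, Slc38a2, Slc6a9 and Slc43a1, against 12.4% of all windows and 16.8% of these genes. Starts 2 and 3 of Slc6a9 and start 1 of Slc7a1 each held it, while start 1 of Slc6a9 and start 2 of Slc7a1 did not. Any link of a match to the change with baicalin was not tested. A match is a run of letters in this window and not a measured site, and genes with several starts have more than 1 window to hold a match.

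In the libraries labelled basal, 3 of the 9 transporters rose with baicalin by more than 1 on the log2 scale, against 2.15% of 17787 genes, and 0 fell past that size, against 3.33% of genes. The 3 were Slc6a9, Slc7a3 and Slc1a4. With the label luminal 3 of 9 rose, Slc7a3, Slc6a9 and Slc7a5, against 2.37% of genes, and 0 fell, against 1.59%. Slc6a9 and Slc7a3 rose under both labels, as 0.596% of genes did. The size of a change is the log2 ratio after 1 FPKM was added to each level, a scale on which genes of low level move less than their ratio. The median change of the 9 was 0.70 with the label basal and 0.90 with the label luminal, where the medians of all genes were 0.01 and -0.02. The 9 were chosen with earlier results of these data known, so their contrast with all genes is a description only. Direction alone was mixed under the label basal, with 6 of 9 higher and 3 lower, against 50.9% and 49.1% of genes. Under the label luminal 9 of 9 were higher, against 45.6% of genes higher and 54.4% lower. These counts include ratios whose interval holds 1, those of Slc38a1 and Slc43a1 under the label basal and of Slc43a1 under the label luminal. The 95% interval of the FPKM ratio, which covers counting error only, lay above 1 for 6 of 9 genes in the basal comparison and for 8 of 9 in the luminal comparison, and 28.1% and 22.9% of genes had such an interval. Below 1 lay 1 gene, Slc1a5, in the basal comparison, against 26.3% of genes, and 0 in the luminal comparison, against 28.7%. Such an interval narrows with the number of fragments, and the shares of all genes were not matched for level. Slc38a2 counted as above 1 in the basal comparison at a ratio of only 1.03, on 14175 and 14944 fragments. Cell markers moved beside the transporters. With baicalin 9 of 10 basal and 9 of 10 luminal markers were lower under the label basal, and 6 of 10 and 8 of 10 were lower under the label luminal. Their part in the transporter values was not tested, and in bulk RNA fewer cells of a type and less RNA per cell cannot be told apart.

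**Figure D1:**
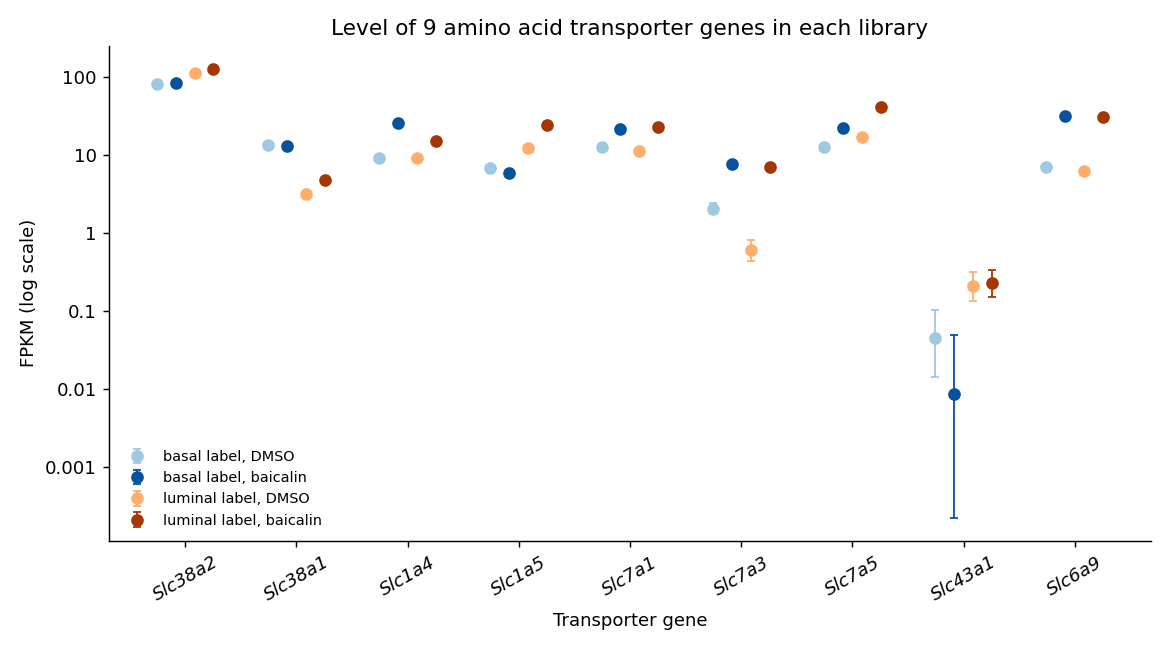
FPKM of the 9 transporter genes (log axis) in each of the 4 libraries, with 1 point per library and 95% Poisson intervals of the counted fragments as bars. Slc38a2 lies at the top in all 4 libraries, and Slc43a1 lies below 0.3 FPKM. Both baicalin points lie above both DMSO points for Slc6a9, Slc7a3, Slc7a1, Slc7a5 and Slc1a4. The share of all genes with this order is not given here.

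Slc6a9 encodes GLYT1, a sodium- and chloride-coupled carrier of glycine (ENSMUSG00000028542, chr4:117834506-117875198, plus strand). Its level was 6.96 FPKM in basal DMSO, 31.5 in basal baicalin, 6.20 in luminal DMSO and 30.4 in luminal baicalin, from 710, 3281, 617 and 3230 fragments. Under each label the level was higher with baicalin. The ratio of baicalin to DMSO was 4.52 (95% interval 4.17 to 4.91) with the label basal and 4.91 (4.50 to 5.36) with the label luminal. These were log2 changes of 2.03 and 2.13, the 39th and 46th highest of 17787 genes, and the difference between the labels was 0.10. Of its exon bases, 1429 also lie in exons of Ccdc24 on the other strand, but Ccdc24 itself held only 0 to 4 fragments in a library. It shares 46 exon bases with B4galt2, also on the other strand.

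Slc7a1 and Slc7a3 encode CAT1 and CAT3, carriers of the cationic amino acids arginine, lysine and ornithine. Slc7a3 (ENSMUSG00000031297, chrX:101079210-101086020, minus strand) had 2.04 FPKM in basal DMSO, 7.66 in basal baicalin, 0.601 in luminal DMSO and 7.06 in luminal baicalin. It was low in both DMSO libraries, lowest in luminal DMSO with 44 fragments, and close to equal in the baicalin libraries. Its ratio was 3.76 (3.14 to 4.52) with the label basal and 11.8 (8.64 to 16.4) with the label luminal, the largest ratio of baicalin to DMSO among the 9 genes. On the log2 scale the changes were 1.51 and 2.33. Slc7a1 (ENSMUSG00000041313, chr5:148327410-148399904, minus strand) had 12.6 FPKM in basal DMSO, 21.1 in basal baicalin, 11.2 in luminal DMSO and 23.0 in luminal baicalin. Here too the level was higher with baicalin under each label, by smaller ratios of 1.68 (1.60 to 1.76) and 2.05 (1.96 to 2.15). The log2 changes of Slc7a1 were 0.70 and 0.98, both short of the threshold of 1. The second lay just under it and reached at most 1.04 under the other settings tried.

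The ratio within this pair of cationic carriers differed between the libraries. Slc7a2, a further cationic carrier with 9.13 FPKM in luminal DMSO and 1.62 in luminal baicalin, lies outside the pair. Slc7a1 stood 6.20-fold (5.27 to 7.34) above Slc7a3 in basal DMSO and 2.76-fold (2.53 to 3.01) in basal baicalin. In luminal DMSO it was 18.6-fold (13.8 to 25.7) and in luminal baicalin 3.26-fold (2.98 to 3.56) above. Slc7a1 was thus the more abundant transcript in all 4 libraries, and the gap was smaller in both baicalin libraries. Over their longest open reading frames the pair shared 66.2% of aligned bases.

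Slc7a5 and Slc43a1 encode LAT1 and LAT3, carriers of leucine and other large neutral amino acids. LAT1 is an exchanger and reaches the plasma membrane only with a heavy chain, Slc3a2 (CD98), while LAT3 needs none. Slc7a5 (ENSMUSG00000040010, chr8:121881150-121907694, minus strand) had 12.6 FPKM in basal DMSO, 22.0 in basal baicalin, 16.9 in luminal DMSO and 40.8 in luminal baicalin. Its level was highest in luminal baicalin. The ratios were 1.74 (1.61 to 1.89) with the label basal and 2.41 (2.26 to 2.58) with the label luminal, log2 changes of 0.76 and 1.22. Slc43a1 (ENSMUSG00000027075, chr2:84838850-84863594, plus strand) had 0.0441, 0.0086, 0.208 and 0.229 FPKM in the same order, from 5, 1, 23 and 27 fragments. At this depth no difference with baicalin was detectable for it, with ratios of 0.195 (0.00414 to 1.75) and 1.10 (0.608 to 2.01).

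The heavy chain and its light chain did not keep their ratio. Slc3a2 had 62.0 FPKM in basal DMSO, 149 in basal baicalin, 110 in luminal DMSO and 136 in luminal baicalin, the lowest level in basal DMSO and the highest in basal baicalin. Its ratio of baicalin to DMSO was 2.40 (2.32 to 2.49) with the label basal, a log2 change of 1.25, and 1.23 (1.19 to 1.27) with the label luminal, a log2 change of 0.30. Slc7a5 per Slc3a2 was 0.203 (0.189 to 0.218) in basal DMSO and 0.148 (0.140 to 0.155) in basal baicalin, but 0.153 (0.144 to 0.163) in luminal DMSO and 0.300 (0.288 to 0.313) in luminal baicalin. The light chain was thus lower per heavy chain with baicalin under the label basal and higher under the label luminal. Slc3a2 also pairs with other light chains, the cystine exchanger among them. Slc3a1, the heavy chain of the renal cystine and dibasic amino acid carrier, had between 0.157 and 0.459 FPKM.

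**Figure D2:**
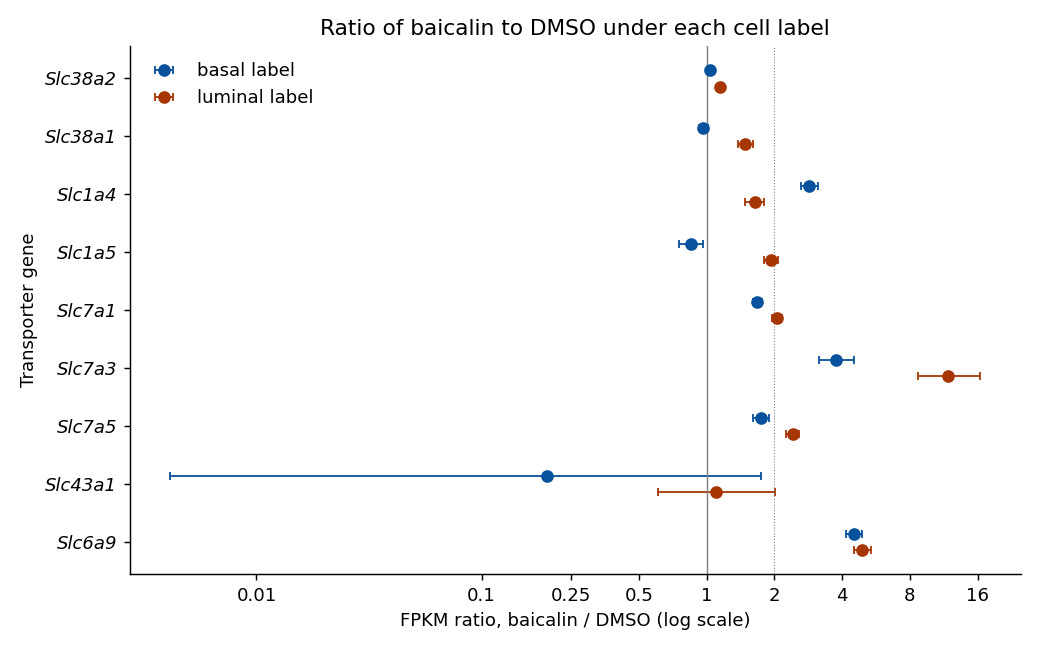
FPKM ratio of baicalin to DMSO (log axis) for the 9 transporters under each cell label, with 95% counting intervals as bars, a solid line at 1 and a dotted line at 2. Slc6a9 and Slc7a3 lie past 2 under both labels, Slc1a4 under the label basal only, Slc7a5 under the label luminal only, the interval of Slc7a1 under the label luminal (1.96 to 2.15) spans 2, and the intervals of Slc43a1 span 1.

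Slc1a4 and Slc1a5 encode ASCT1 and ASCT2, sodium-dependent exchangers of small neutral amino acids, of which ASCT2 also takes glutamine. Slc1a4 (ENSMUSG00000020142, chr11:20302180-20332713, minus strand) had 9.04 FPKM in basal DMSO, 25.8 in basal baicalin, 9.21 in luminal DMSO and 15.0 in luminal baicalin. The DMSO libraries were close to equal, and basal baicalin stood highest. Its ratio was 2.85 (2.62 to 3.11) with the label basal and 1.63 (1.49 to 1.79) with the label luminal, log2 changes of 1.41 and 0.65. Slc1a5 (ENSMUSG00000001918, chr7:16781340-16798274, plus strand) had 6.80, 5.77, 12.3 and 23.8 FPKM in the same order. Under the label basal it was slightly lower with baicalin, at a ratio of 0.848 (0.750 to 0.959), and under the label luminal it was higher, at 1.93 (1.79 to 2.08). The log2 changes were -0.20 and 0.90, neither past the threshold. In ratio to each other, Slc1a4 per Slc1a5 was 1.33 (1.19 to 1.49) in basal DMSO, 4.47 (4.05 to 4.95) in basal baicalin, 0.749 (0.679 to 0.825) in luminal DMSO and 0.632 (0.589 to 0.679) in luminal baicalin. Slc1a4 was the more abundant of the pair in both libraries labelled basal and Slc1a5 in both labelled luminal. Over their longest open reading frames the pair shared 68.1% of aligned bases.

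Slc38a1 and Slc38a2 encode SNAT1 and SNAT2, the sodium-coupled carriers of glutamine, alanine and other small neutral amino acids known as system A. Slc38a2 (ENSMUSG00000022462, chr15:96687392-96699730, minus strand) had 80.8 FPKM in basal DMSO, 83.4 in basal baicalin, 111 in luminal DMSO and 126 in luminal baicalin. It was the most abundant of the 9 in every library, and its ratios of baicalin to DMSO were small, at 1.03 (1.01 to 1.06) and 1.14 (1.12 to 1.17). The log2 changes were 0.04 and 0.19. Slc38a1 (ENSMUSG00000023169, chr15:96571418-96642913, minus strand) had 13.3, 12.9, 3.17 and 4.72 FPKM in the same order. Its levels were high under the label basal and low under the label luminal, with ratios of baicalin to DMSO of 0.968 (0.929 to 1.01) and 1.49 (1.38 to 1.61). The log2 changes were -0.04 and 0.45. Under the label basal these were the 2 smallest log2 changes of the 9 genes. Slc38a2 stood 6.07-fold (5.87 to 6.28) above Slc38a1 in basal DMSO, 6.47-fold (6.26 to 6.69) in basal baicalin, 34.8-fold (32.8 to 37.1) in luminal DMSO and 26.8-fold (25.5 to 28.2) in luminal baicalin. Their longest open reading frames shared 64.1% of aligned bases.

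**Figure D3:**
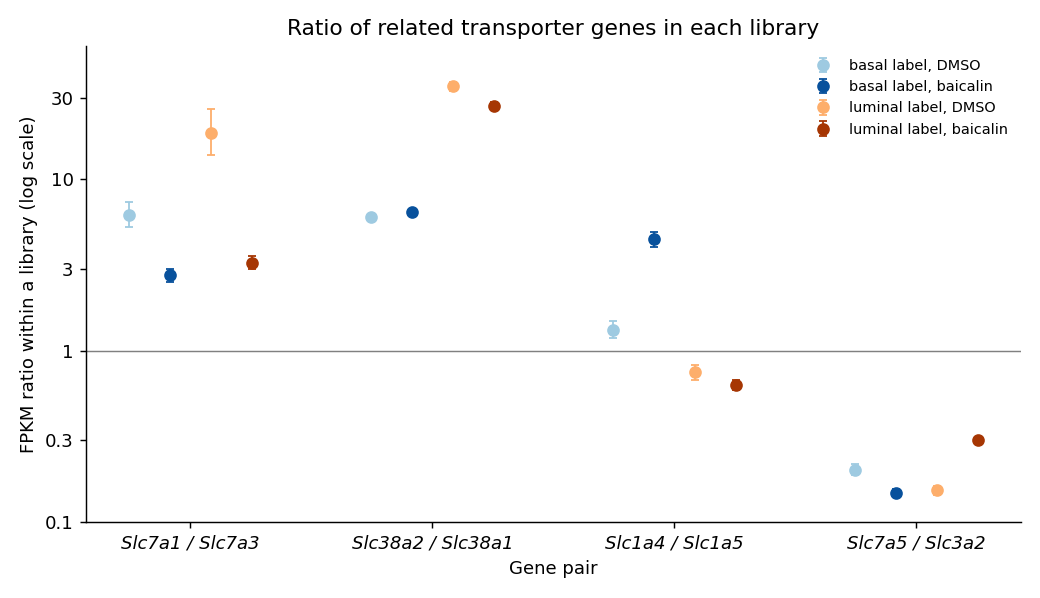
Ratio of FPKM within a library (log axis) for the pairs Slc7a1 to Slc7a3, Slc38a2 to Slc38a1, Slc1a4 to Slc1a5 and Slc7a5 to Slc3a2, with 95% counting intervals as bars. The Slc7a1 to Slc7a3 ratio is lower in both baicalin libraries, and the Slc38a2 to Slc38a1 ratio is set apart by the cell label.

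Between the labels, the transporters differed in both directions. With DMSO, 0 of 9 were higher in the library labelled luminal by more than 1 on the log2 scale, against 4.71% of genes, and 1 of 9 was lower, against 3.86%. With baicalin 1 of 9 was higher, against 5.24%, and 1 of 9 was lower, against 2.99%. The lower gene was Slc38a1 both times, 4.19-fold lower with DMSO and 2.73-fold lower with baicalin, log2 differences of -1.78 and -1.28. The higher gene was Slc1a5 with baicalin, at a ratio of luminal to basal of 4.12 (3.73 to 4.56) and a log2 difference of 1.87, where it had been 1.81 (1.63 to 2.01) with DMSO. Slc7a5 was higher under the label luminal with ratios of 1.34 (1.23 to 1.47) and 1.86 (1.75 to 1.97). Slc38a2 was likewise higher, at 1.37 (1.34 to 1.40) and 1.52 (1.49 to 1.55). The 2 cationic carriers were lower under the label luminal with DMSO, Slc7a1 at 0.888 (0.841 to 0.937) and Slc7a3 at 0.295 (0.206 to 0.415). With baicalin Slc7a1 was slightly higher under the label luminal, at 1.09 (1.05 to 1.13), and Slc7a3 was at 0.922 (0.820 to 1.04), an interval that holds 1. Slc6a9 was at 0.891 (0.799 to 0.994) with DMSO and 0.967 (0.921 to 1.02) with baicalin. Slc1a4 was at 1.02 (0.916 to 1.13) with DMSO and 0.583 (0.542 to 0.626) with baicalin. Slc43a1 was at 4.71 (1.75 to 15.9) and 26.6 (4.37 to 1086), on at most 27 fragments in a library. The counting interval lay above 1 for 4 of 9 genes and below 1 for 4 with DMSO, against 30.5% and 30.2% of genes, and above 1 for 5 and below 1 for 2 with baicalin, against 25.8% and 33.7%. These shares were likewise not matched for level. The median log2 difference of the 9 was 0.02 with DMSO and 0.12 with baicalin, and that of all genes was 0.01 and -0.03. The label, the keratin markers and any other difference between the 2 cultures cannot be told apart here.

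The change with baicalin was larger under the label luminal for 8 of 9 genes, as for 45.2% of all genes. The difference of the log2 changes, luminal minus basal, passed 1 for 1 gene, Slc1a5 at 1.10, against 4.41% of genes, and 0 genes passed -1, against 2.65%. It was 0.82 for Slc7a3, 0.50 for Slc38a1, 0.47 for Slc7a5, 0.28 for Slc7a1 and 0.15 for Slc38a2. Slc6a9, at 0.10, and Slc43a1, at 0.07, are also among the 8, but the ratio intervals of each under the 2 labels overlap. Slc1a4 alone was below 0, at -0.76. The median was 0.28, where that of all genes was -0.03. With 1 library per condition these differences have no replicate check.

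The order of the transporters by FPKM, which is per length and allows levels of different genes to be set side by side, differed between libraries below Slc38a2. In basal DMSO Slc38a1 came next, then Slc7a1 and Slc7a5, whose ratio of 1.002 (0.930 to 1.08) did not separate them, then Slc1a4, then Slc6a9 and Slc1a5, at a ratio of 1.02 (0.915 to 1.15), and then Slc7a3 and Slc43a1. In basal baicalin Slc6a9 and Slc1a4 came next, then Slc7a5 and Slc7a1, at a ratio of 1.04 (0.981 to 1.10), and then Slc38a1, Slc7a3, Slc1a5 and Slc43a1. Slc6a9 was thus sixth with DMSO and second with baicalin. In luminal DMSO the order was Slc7a5, Slc1a5, Slc7a1, Slc1a4, Slc6a9, Slc38a1, Slc7a3 and Slc43a1. In luminal baicalin it was Slc7a5, Slc6a9, then Slc1a5 and Slc7a1, at a ratio of 1.03 (0.981 to 1.09), and then Slc1a4, Slc7a3, Slc38a1 and Slc43a1. Slc43a1 was last everywhere.

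The summed FPKM of the 9 genes was 144 in basal DMSO, 210.0 in basal baicalin, 170.5 in luminal DMSO and 272 in luminal baicalin. It was higher with baicalin by 1.46-fold under the label basal and by 1.59-fold under the label luminal. Without Slc38a2 the sums were 63.4, 127, 59.8 and 145 FPKM, and the ratios were 1.998 and 2.42. Slc38a2 made up 56.0% of the sum in basal DMSO and 39.7% in basal baicalin, and 64.9% and 46.6% under the label luminal. The share of Slc6a9 went from 4.82% to 15.0% with the label basal and from 3.64% to 11.2% with the label luminal, and that of Slc7a5 from 8.73% to 10.5% and from 9.93% to 15.0%.

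**Figure D4:**
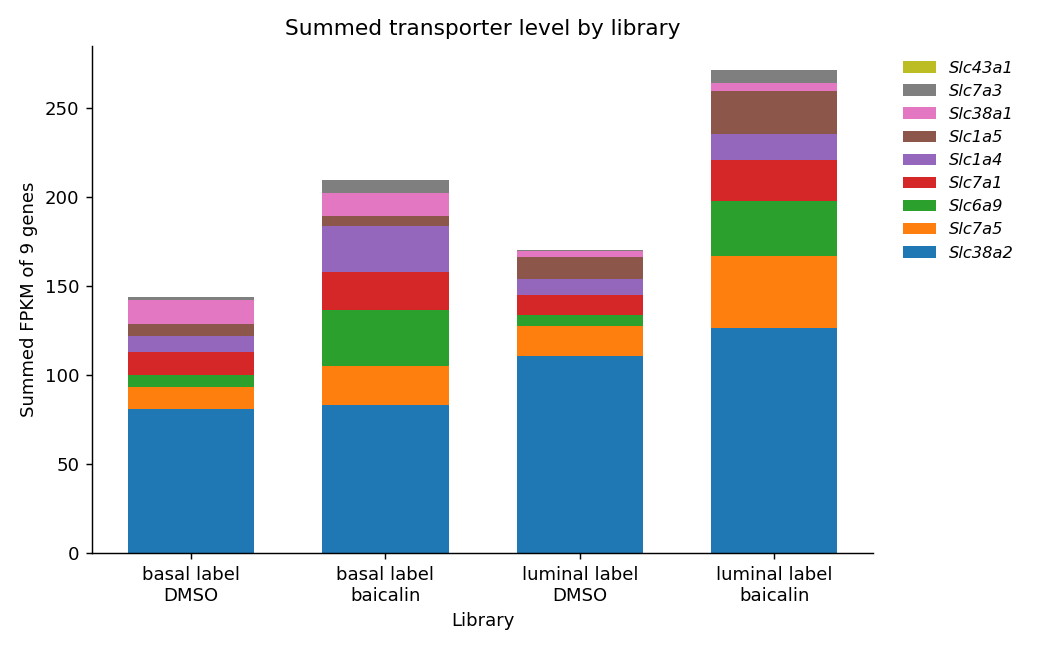
Stacked FPKM of the 9 transporters in each library, with 1 colour per gene and the axis starting at 0. Slc38a2 is the largest block in every library, and the baicalin bars of 210.0 and 272 FPKM stand above the DMSO bars of 144 and 170.5.

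Other carriers of amino acids at the plasma membrane did not all move the same way. Of 36 such genes, 18 had a value above 0 in all 4 libraries. Of these, 0 rose and 2 fell past 1 under the label basal, and 2 rose and 1 fell under the label luminal, where 2.15% and 3.33% of all genes rose and fell under the label basal and 2.37% and 1.59% under the label luminal, with median log2 changes of -0.16 and -0.06. Slc6a14, a broad carrier of neutral and cationic amino acids, had 7.47 FPKM in basal DMSO, 0.603 in basal baicalin, 1.40 in luminal DMSO and 3.00 in luminal baicalin. It was 12.4-fold lower with baicalin under the label basal and 2.15-fold (1.68 to 2.77) higher under the label luminal. Slc1a1, a glutamate and aspartate carrier, had 1.37, 0.160, 0.871 and 3.03 FPKM, 8.58-fold lower and 3.48-fold (2.89 to 4.24) higher. Slc7a8 (LAT2), an exchanger of large neutral amino acids like Slc7a5, had 0.131, 0.0690, 2.48 and 7.98 FPKM. It rose 3.22-fold (2.79 to 3.74) under the label luminal and could not be told apart from no change under the label basal, at 0.528 (0.178 to 1.42). Slc7a2, a cationic carrier like Slc7a1, had 1.75, 1.61, 9.13 and 1.62 FPKM. It fell 5.63-fold under the label luminal, where Slc7a1 and Slc7a3 were higher. Of 16 measured lysosomal and mitochondrial amino acid carriers, 0 passed the threshold in either direction under either label, with median log2 changes of 0.03 and 0.04.

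Genes of the amino acid response, from the eIF2α kinases to ATF4 and its known targets, were read beside the transporters. The list holds eIF2α kinases other than GCN2, so it is not specific to amino acid shortage, which was not measured. Of 18 measured genes, 7 rose and 1 fell under the label basal and 6 rose and 0 fell under the label luminal, with medians of 0.87 and 0.69. The shares of all genes that rose and fell were 2.15% and 3.33% under the label basal and 2.37% and 1.59% under the label luminal. Trib3, a pseudokinase that restrains ATF4, had 20.1, 90.5, 4.98 and 32.2 FPKM, log2 changes of 2.11 and 2.47. Chac1, which degrades glutathione, changed by 1.99 and 2.42, and Sesn2, a leucine sensor upstream of mTORC1, by 1.97 and 1.23. Ddit3 (CHOP), a transcription factor of the stress response, changed by 1.89 and 0.90, and Atf5, a relative of ATF4, by 0.96 and 2.01. Atf4 itself had 141, 224, 117 and 195 FPKM, log2 changes of 0.67 and 0.74. The gene that fell was Eif2ak2, the eIF2α kinase PKR, at -1.14. Atf4 and Eif2ak2 are named after their values were seen. TGATGNAA was found in the promoter window of 6 of these 18 genes, Atf3, Chac1, Trib3, Asns, Nupr1 and Vldlr, and TGACNNNGC in 5, against 2.88% and 16.8% of the genes with a window and a value in all 4 libraries. The list was drawn up with known targets of ATF4, which acts through the first element, so its matches are no independent evidence. Sesn2, which rose past the threshold under both labels, is counted in the amino acid response and not in the mTORC1 list that follows. Of 32 genes of amino acid sensing by mTORC1, 1 rose and 0 fell under each label, with medians of 0.16 and 0.03, a count close to the shares of 2.15% and 2.37% of all genes that rose. The gene was Rragd, a Rag GTPase that recruits mTORC1 to the lysosome, with 2.90 FPKM in basal DMSO, 17.3 in basal baicalin, 1.17 in luminal DMSO and 6.18 in luminal baicalin, log2 changes of 2.23 and 1.73.

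**Figure D5:**
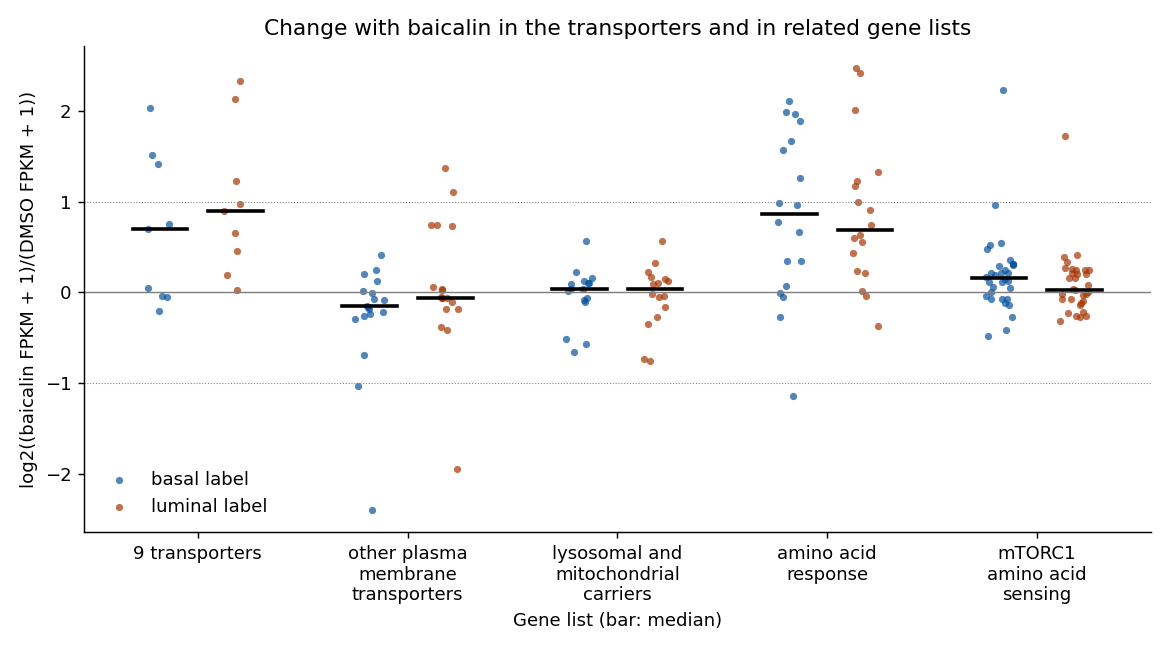
Log2 change with baicalin under each cell label for the 9 transporters and for the measured genes of 4 related lists, with 1 point per gene, the median as a bar and dotted lines at 1 and -1. The medians of the transporters, 0.70 and 0.90, and of the amino acid response, 0.87 and 0.69, lie above those of the other lists. The lists were chosen with earlier results of these data known, so the contrast between them is a description only.

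Ahnak2, Klf9 and Map3k8 were among the 5 genes whose pattern over the 4 libraries lay nearest to the median pattern of the 9 transporters. Likeness was the Euclidean distance between centred log2(FPKM + 1) values, over 9146 genes with at least 5 FPKM in a library, and it was 0.117 for Ahnak2, 0.160 for Klf9 and 0.186 for Map3k8. Among the transporters themselves Slc7a1 lay nearest to that median, at 0.159, and Slc38a1 farthest, at 1.75. A distance over 4 libraries is a description, and without the added 1 FPKM 0 of the 5 genes were the same.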

How the data were processed

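RNA from 4 cultures was enriched with oligo (dT) beads, and libraries were made with the KAPA stranded kit. The authors aligned the reads to GRCm38 with HISAT2, counted fragments with featureCounts on Ensembl release 94 and deposited FPKM for 54446 genes. The strand setting is not given in the sources used here. The submitters' processing notes also name Bowtie 0.12.2 and mm8.

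Exon lengths of GENCODE M21 (GRCm38), known for 54409 genes, turned FPKM into fragments, and 98.7% to 98.9% of low genes came out whole within 0.1 fragment. The fragments gave exact Clopper-Pearson intervals (95%) on ratios and Poisson intervals on levels. PCR copies were not removed by identifiers, so intervals cover counting error only. Changes were computed as log2((FPKM + 1)/(FPKM + 1)) on 17787 genes above 0 in all 4 libraries, with a threshold of 1, which follows the study's filter and fold. Its t-test needs replicates, which 4 conditions of 1 library do not give, and no test was made. The computation was tested on simulated data.

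Named genes were the 9 transporters, the heavy chains, the list members past 1 with baicalin (the 5 largest where more passed), the 5 nearest genes and the cell markers. Not every gene this rule selects is reported here. The members and lists were chosen with earlier results of these data known. Of the lysosomal and mitochondrial list, Slc66a1 was found under its older symbol Pqlc2. Alternatives were other pseudocounts, filters on low values, scalings and thresholds. Promoters came from RefSeq (GRCm38.p6). Tables were made with pandas 2.3.3 and numpy 2.4.6 in Python 3.11.15, intervals with scipy 1.17.1, reading frames with Biopython 1.88 and figures with matplotlib 3.10.9.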

Additional observations from a re-analysis of the deposited data

Results flagged for a closer look

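For 6 genes named in the report, baicalin moved the level one way under the label basal and the other way under the label luminal, with both counting intervals off 1. Such intervals were common, above 1 for 28.1% and below 1 for 26.3% of all genes with the label basal. With the label luminal these shares were 22.9% and 28.7%. The share of all genes with opposite moves was not computed, so the count of 6 has nothing to be set against. Among amino acid carriers at the plasma membrane, the difference of the log2 changes, luminal minus basal, was 3.14 for Slc6a14, 2.14 for Slc1a1 and 1.10 for Slc1a5. Only Slc1a5 is one of the transporters followed here, and Slc6a14 and Slc1a1 belong to the list of other carriers. Slc6a14 changed by -2.40 with the label basal and 0.74 with the label luminal, Slc1a1 by -1.03 and 1.11, and Slc1a5 by -0.20 and 0.90. Among the genes named beside them it was 1.22 for Nupr1 of the amino acid response, with changes of -0.05 and 1.17, and 5.27 and 2.28 for the basal keratins Krt5 and Krt14, which changed by -5.01 and 0.26 and by -1.84 and 0.44. Nupr1 moved little under the label basal, at a ratio of 0.964 on 13310 and 13111 fragments. With 1 library per condition these differences were not tested.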

How the results depend on the processing

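No paired analysis was possible because each condition has 1 library and the labels give no replicate numbers; leaving out a library was not possible for the same reason. Beside the main count of 1 transporter past the threshold between the labels with DMSO, the count was 3 with a pseudocount of 0.1, 3 with none, 2 with TPM, 0 with a threshold of 2 and 3 with a threshold of 1.5-fold. With baicalin the main count of 2 became 3 with a pseudocount of 0.1 or none, 0 with a threshold of 2 and 5 with 1.5-fold. The main count of 1 for the difference between the labels became 2, 3, 2, 0 and 3 under the same 5 settings as with DMSO. The count of transporters past the threshold with baicalin went from 3 to 1 with a threshold of 2 and to 5 with 1.5-fold under the label basal. Under the label luminal this count went from 3 to 4 with a pseudocount of 0.1 or none and to 6 with 1.5-fold. Slc7a1, at 0.98 in the main setting, also passed 1 under the other scalings. With a threshold of 2 only Slc6a9, at 2.13, and Slc7a3, at 2.33, remained. Without a pseudocount 1 transporter, Slc43a1, was lower past the threshold under the label basal, where 0 were in the main count, at -2.36 on 5 and 1 fragments. The median difference between the labels in the change went from 0.28 to 0.47 with a pseudocount of 0.1 or none, and the median between the labels with baicalin from 0.12 to 0.035 with FPKM of at least 1 and to 0.052 with TPM. The median of the lysosomal and mitochondrial carriers under the label luminal turned from 0.04 to -0.10 over the 6 members with at least 5 FPKM. The sign of Slc1a4 between the labels with DMSO (-0.08 to 0.03) and of Slc6a9 with baicalin (-0.12 to 0.0036) depended on the scaling. Counts over all genes were lowest with a threshold of 2 and highest without a pseudocount. Beside main counts of 383 higher and 592 lower with baicalin under the label basal, these were 41 and 132, and 1693 and 2054. Under the label luminal, 421 and 282 became 60 and 46, and 1559 and 1537. Between the labels, 837 and 686 with DMSO became 185 and 150, and 2872 and 1926, and 932 and 531 with baicalin became 242 and 59, and 2632 and 2003. For the difference, 784 and 472 became 133 and 37, and 2322 and 2284. A pseudocount of 0.1, TPM and a threshold of 1.5-fold gave counts in between. The causes were not tested. Slc43a1, with at most 27 fragments, is the transporter most limited by depth.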
